A study of Homo sapiens with 2 samples.

Results

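Clade B serpins encoded by the gene cluster at 18q21 were examined in HT1080 cells, a human fibrosarcoma cell line, with SERPINB7 set against its neighbours. The members were a list of 8 named genes, each represented by its array sequence with the highest mean level among sequences annotated with 1 gene symbol. Of these 8 genes, 7 were measured: SERPINB5, SERPINB12, SERPINB13, SERPINB11, SERPINB7, SERPINB10 and SERPINB8, out of 18417 genes in all. SERPINB2 was listed under no such sequence and was not analysed here. The list was chosen by the rLCC111 minus BSA difference of SERPINB7 and by position at 18q21, so this difference and those of its neighbours are a description and not a test. The rLCC111 group was 1 array of HT1080 cells after 24 h of incubation on a coat of rLCC111, a recombinant heterotrimer of the coiled-coil domains of the laminin α1, β1 and γ1 chains. The BSA group was 1 array of HT1080 cells after 24 h on a coat of bovine serum albumin, labelled as having no extracellular matrix. Both groups were the same single cell line in the same growth medium with serum, and the only labelled contrast was the coating. With 1 array per coating no difference has a replicate check, the number of arrays limits the precision, and no p-value is given.

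Serpins are protease inhibitors that present a flexible reactive centre loop as bait. A protease that cleaves the loop is swung across the serpin body and trapped as a covalent complex. Clade B members, the ov-serpins, lack a classical cleaved signal peptide and act mostly inside cells, and several members of the 18q21 cluster are best known from skin and other squamous epithelia. Some, SERPINB5 among them, do not work as protease inhibitors.

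SERPINB7 was the member with a difference of more than 2-fold, and it was lower on rLCC111. SERPINB7 encodes megsin, first described in mesangial cells of the kidney and also made in the epidermis, where its inherited loss underlies a form of palmoplantar keratosis. Its log2 level was 7.03 on rLCC111 and 8.67 on BSA, a log2 difference (rLCC111 minus BSA) of -1.63. On a linear scale the signal was 131 units on rLCC111 and 406 units on BSA. The array thus read SERPINB7 as 3.10-fold higher in cells on BSA. The limit of silent genes was the level that 95% of 399 sensory receptor genes do not exceed in their mean over the arrays (olfactory, taste, trace amine and vomeronasal receptors), and it was 6.61. Levels of different genes come from different probes, so this limit is approximate. SERPINB7 lay 0.43 log2 above this limit on rLCC111 and 2.06 above it on BSA. On rLCC111 it was thus above this limit but below the median of all sequences on that array, 7.12. The leukocyte protease gene ELANE was at 8.01 on both arrays, also above the limit. A level above the limit therefore does not by itself show that a gene is expressed.

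Of the 7 measured members, 1 was at least 2-fold lower on rLCC111 and 0 were at least 2-fold higher. Over all 18417 genes, 0.0869% were at least 2-fold lower, 0.239% at least 2-fold higher and 0.326% were 2-fold different in either direction. Among the 12738 genes whose higher level exceeded the limit these shares were 0.126%, 0.322% and 0.447%. Because the list was built around SERPINB7, nothing is read from this count. In the order of differences over all genes SERPINB7 was number 3 from the lowest.

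**Figure D1:**
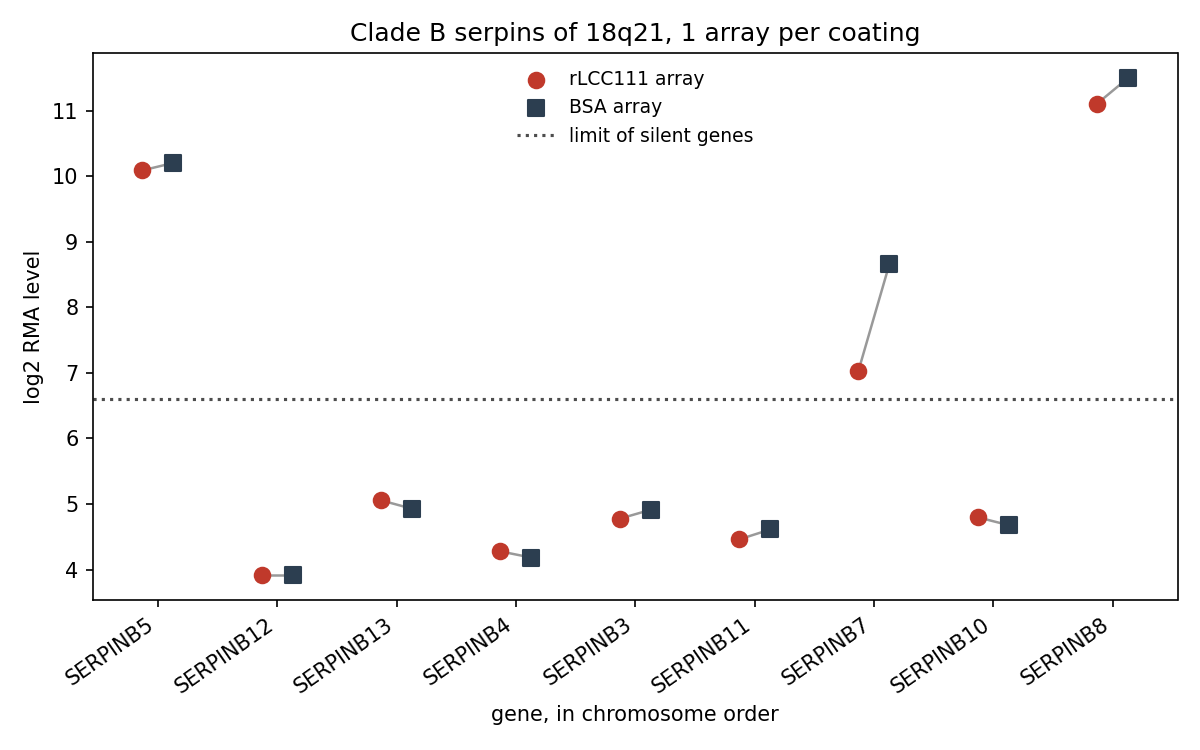
Log2 RMA level (vertical) of the 9 clade B serpin genes of 18q21 measured under 1 symbol, in chromosome order (horizontal), with rLCC111 as circles and BSA as squares, 1 array per coating. Lines join the values of a gene and the dotted line is the limit of silent genes at 6.61; SERPINB7, at 7.03 on rLCC111 and 8.67 on BSA, has the steepest line, and SERPINB5 and SERPINB8 are the other genes above the limit.

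The bases before the annotated starts of SERPINB7, SERPINB8 and SERPINB5 are shown because these are the promoter regions of the cluster genes above the limit. The RefSeq table of GRCh38.p14 gives 3 starts for SERPINB7 and 1 each for SERPINB8 and SERPINB5, all on the + strand. Windows of 250 bases ending just before a start were taken, at chr18:63752807-63753056, chr18:63775168-63775417 and chr18:63777531-63777780 for SERPINB7, chr18:63969831-63970080 for SERPINB8 and chr18:63476708-63476957 for SERPINB5. The windows of the second and the third SERPINB7 start lie downstream of its first start. Capitals mark matches to the AP-1 letters TGANTCA, which read the same on both strands, and to the TATA box letters TATAAA on either strand.
SERPINB7 start 1: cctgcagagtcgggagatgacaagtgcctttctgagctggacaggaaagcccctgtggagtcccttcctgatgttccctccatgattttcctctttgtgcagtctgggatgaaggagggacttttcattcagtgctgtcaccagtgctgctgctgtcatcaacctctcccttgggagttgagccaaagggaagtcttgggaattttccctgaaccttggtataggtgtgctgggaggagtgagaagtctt
SERPINB7 start 2: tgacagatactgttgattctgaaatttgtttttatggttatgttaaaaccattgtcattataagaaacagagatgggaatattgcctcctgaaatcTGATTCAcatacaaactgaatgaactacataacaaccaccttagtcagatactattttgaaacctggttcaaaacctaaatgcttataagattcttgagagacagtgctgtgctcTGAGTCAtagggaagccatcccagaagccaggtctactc
SERPINB7 start 3: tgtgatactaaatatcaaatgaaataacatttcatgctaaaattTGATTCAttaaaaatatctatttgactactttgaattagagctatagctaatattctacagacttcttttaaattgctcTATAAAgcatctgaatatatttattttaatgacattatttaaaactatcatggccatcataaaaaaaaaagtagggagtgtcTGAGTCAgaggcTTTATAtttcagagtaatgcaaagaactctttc
SERPINB8 start: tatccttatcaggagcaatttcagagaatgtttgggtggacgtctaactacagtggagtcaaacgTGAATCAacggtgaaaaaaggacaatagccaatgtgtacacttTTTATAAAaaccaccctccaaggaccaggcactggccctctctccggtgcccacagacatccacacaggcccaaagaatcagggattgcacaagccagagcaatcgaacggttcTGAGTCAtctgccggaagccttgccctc
SERPINB5 start: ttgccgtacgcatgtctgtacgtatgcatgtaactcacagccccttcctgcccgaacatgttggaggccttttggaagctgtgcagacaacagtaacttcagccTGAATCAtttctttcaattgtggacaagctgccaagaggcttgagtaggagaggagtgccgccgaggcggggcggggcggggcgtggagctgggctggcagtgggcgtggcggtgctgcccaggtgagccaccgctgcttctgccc

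The first SERPINB7 window held neither motif. The second held 2 AP-1 matches and the third held 2 AP-1 and 2 TATA box matches, with TGAGTCA beginning 39 bases before the second start and 45 bases before the third. The SERPINB8 window also held 2 AP-1 matches, of which TGAGTCA began 28 bases before the start, and 2 TATA box matches that overlap each other on opposite strands. The SERPINB5 window held 1 AP-1 match, TGAATCA, and no TATA box letters, and 60.0% of its bases were G or C, against 26.0% in the window of the third SERPINB7 start. No AP-1 match overlapped a TATA box match. Among the members read as silent, the SERPINB13 window held TGACTCA and 1 of 2 SERPINB12 windows held TGATTCA, while the windows of the cluster genes SERPINB3 and SERPINB4 held neither motif. SERPINB10 and SERPINB11 were not searched. In all, 6 of 10 windows, in 5 of 7 genes, held AP-1 letters, and 3 of 10 windows, in 3 of 7 genes, held TATA box letters. Over 35116 windows of the same length, 6.57% held AP-1 letters and 10.7% held TATA box letters. These shares are per window, so they do not apply to the counts of genes. SERPINB7 gave 3 of the 10 windows and SERPINB12 gave 2. Whether the cluster holds these letters more often than other genes was not tested. The array gives 1 level for SERPINB7 and does not assign it to a start, and a match of letters is not a binding site.

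SERPINB8 and SERPINB5 were the other members above the limit of silent genes on both arrays. SERPINB8, an inhibitor of the proprotein convertase furin, was at 11.11 on rLCC111 and 11.50 on BSA, a log2 difference of -0.39 and a fold of 0.761. Its sign was that of SERPINB7 but its size stayed well under 2-fold. In the order of all 18417 genes it was number 385 from the lowest, so 2.09% of genes were as low or lower. That place moved to number 562 after removal of a lowess trend and to number 644 after quantile normalization. Among the 12738 genes with the brighter array above the limit it was number 337. SERPINB5 encodes maspin, which is studied as an epithelial tumour suppressor. It was at 10.09 on rLCC111 and 10.20 on BSA, a log2 difference of -0.11 and a fold of 0.924. For SERPINB5, 20.4% of genes were as low or lower, so its difference lay within the bulk of the arrays.

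The other 4 measured members were at or below the limit of silent genes on both arrays, and their differences lay between -0.15 and 0.13. SERPINB10, or bomapin, is a serpin of blood-forming cells. It was at 4.80 on rLCC111 and 4.68 on BSA, a log2 difference of 0.12. SERPINB13, or headpin, inhibits the cysteine proteases cathepsin L and cathepsin K. It was at 5.06 on rLCC111 and 4.93 on BSA, a log2 difference of 0.13. These were the members with values above 0, and each difference was small beside that of SERPINB7. SERPINB11, or epipin, was at 4.46 on rLCC111 and 4.61 on BSA, a log2 difference of -0.15. SERPINB12, or yukopin, an inhibitor of trypsin-like serine proteases, had the same value of 3.92 on both arrays. An identical value on both arrays was found for 1325 genes, which were 16.6% of the genes not above the limit and 3.01% of those above it. For comparison, the differences of the sensory receptor genes had a median of 0.00, an SD of 0.18 and a middle 95% between -0.22 and 0.55. The lowest was -0.43 and the highest 1.53, and 2 of the 399 receptor genes passed 2-fold, both on the higher side. The 4 dim members lay inside this middle range, SERPINB8 below it but above the lowest receptor gene, and SERPINB7 below all receptor genes. The highest receptor gene came close to SERPINB7 in size. Because SERPINB7 was chosen by its difference, its place here is not a test. Of the 399 receptor genes 22 had a level above the limit, so this spread is mostly that of dim genes. It may not hold at the higher levels of SERPINB7 and SERPINB8.

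**Figure D2:**
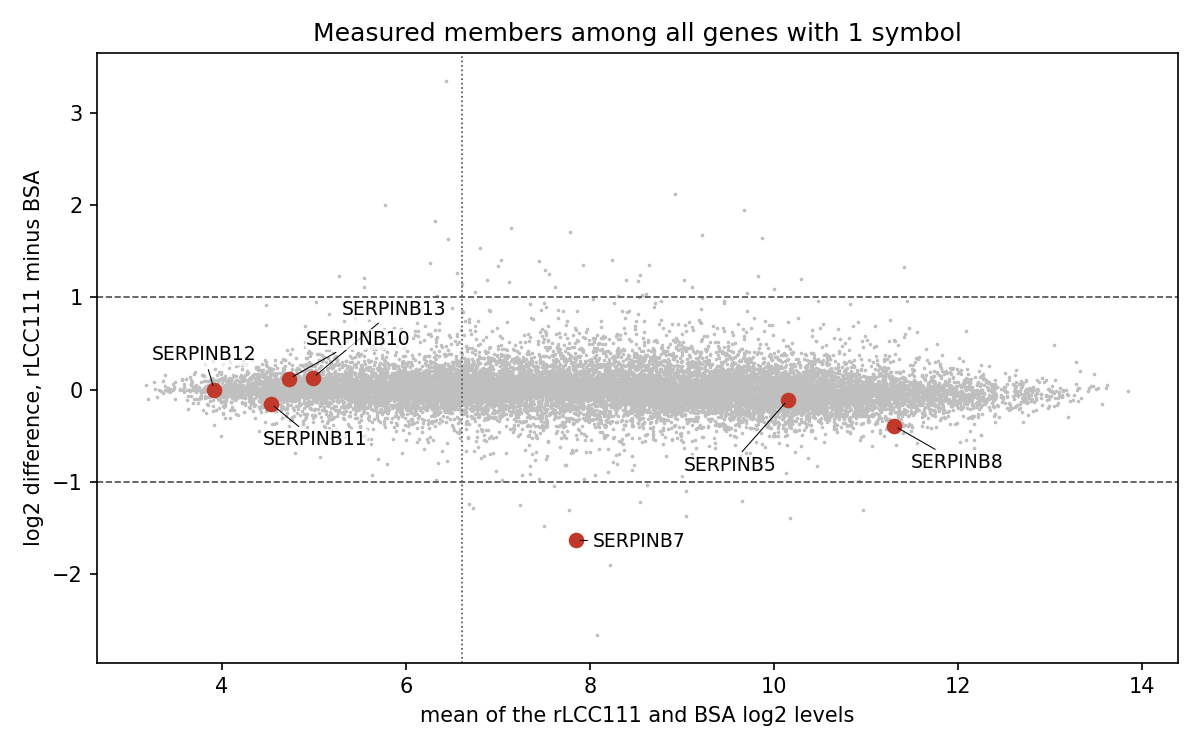
Log2 difference, rLCC111 minus BSA (vertical), against the mean of the rLCC111 and BSA log2 levels (horizontal) for 18417 genes (grey) and the 7 measured members (red), 1 array per coating. Dashed lines mark 2-fold and the dotted line the limit of 6.61; SERPINB7, at -1.63, lies below the lower dashed line, SERPINB8, at -0.39, and SERPINB5, at -0.11, lie between the lines at high level, and the 4 dim members lie near 0.

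Set against its cluster neighbours, SERPINB7 stood apart by more than 1 log2 unit from every measured member. The median difference of the other 6 members was -0.06, with 2 above 0, 3 below 0 and 1 at 0, and the median over all genes was 0.00. The SERPINB7 difference minus this median was -1.575. The gap was smallest to SERPINB8, at -1.24, and widest to SERPINB13, at -1.76. On the chromosome, the next serpin gene before SERPINB7 is SERPINB11 and the next after it is SERPINB2, with SERPINB10 following. The gap was -1.48 to SERPINB11 and -1.75 to SERPINB10, both of them dim on these arrays. The gaps to SERPINB8, and to SERPINB5 at -1.52, are those between genes that were both above the limit of silent genes.

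SERPINB7 was at least 2-fold lower on rLCC111 under each scaling of the arrays that was run. Its log2 difference ran from -1.71 after median centring to -1.63 as deposited, with lowess and quantile normalization in between. SERPINB7 stayed number 3 from the lowest under each, but median centring moves every difference by the same amount and cannot change the order. SERPINB8 ran from -0.47 after median centring to -0.35 after removal of a lowess trend. SERPINB5 ran from -0.19 to -0.08. SERPINB12, at 0.00 as deposited, was at -0.08 after median centring, while SERPINB10 and SERPINB13 stayed above 0 and SERPINB11 below 0 in each setting.

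**Figure D3:**
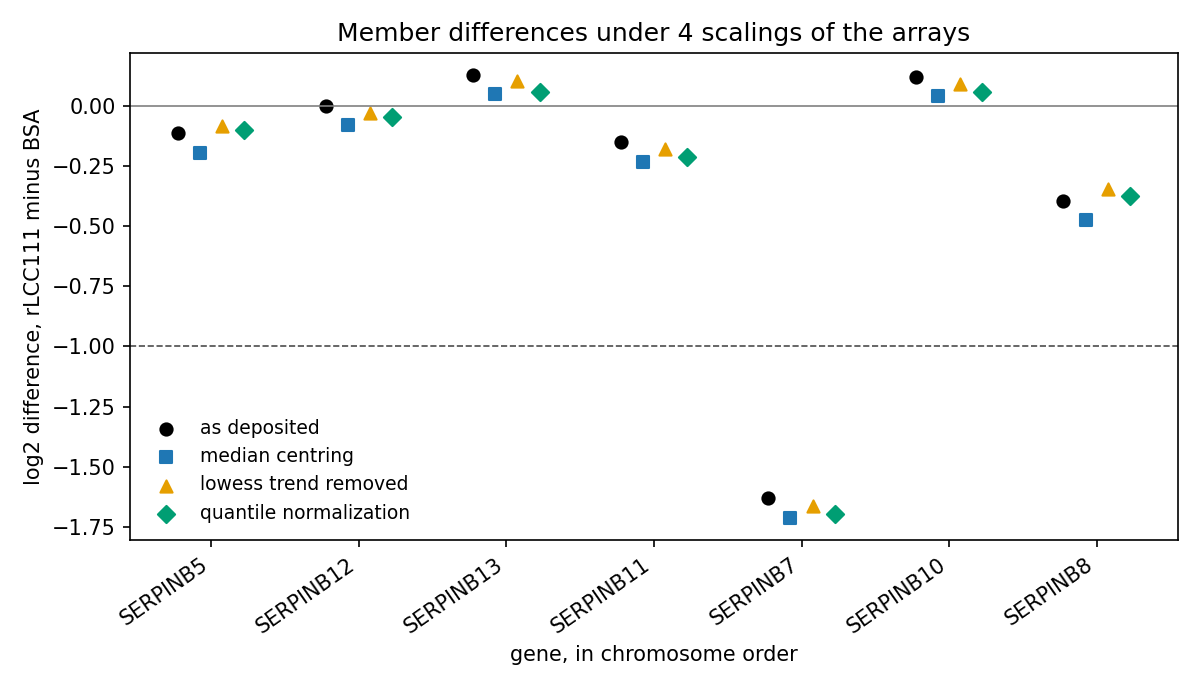
Log2 difference, rLCC111 minus BSA (vertical), of the 7 measured members in chromosome order (horizontal) under 4 scalings: as deposited, median centring, lowess trend removed and quantile normalization. The dashed line marks 2-fold; the SERPINB7 points lie between -1.71 and -1.63, and those of the other members between -0.47 and 0.13.

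Genes around the cluster showed no difference of the size of SERPINB7. Inside the cluster, SERPINB4 and SERPINB3, which encode the squamous cell carcinoma antigens, had log2 differences of 0.10 and -0.14. SERPINB4 was at 4.28 on rLCC111 and 4.18 on BSA, and SERPINB3 was at 4.78 on rLCC111 and 4.91 on BSA, all below the limit. They are closely related copies, and the bases before their starts were the same at 247 of 250 positions (98.8%). Whether their array probes read each other's transcripts was not tested, so their values are uncertain. The 5 protein-coding genes on each side of the cluster, in RefSeq order, had a median of -0.06, and 0 of 10 were 2-fold different. Their differences lay between -0.19 and 0.22. On the side of SERPINB5, ZCCHC2 had a log2 difference of 0.22, PHLPP1, a phosphatase of the kinase AKT, -0.19, BCL2, the inhibitor of apoptosis, -0.09, KDSR, an enzyme of sphingolipid synthesis, -0.14 and VPS4B, an ATPase of membrane sorting, -0.03. On the side of SERPINB8, the cadherin genes CDH7 and CDH19 had 0.11 and 0.03, DSEL -0.09, TMX3 -0.12 and CCDC102B 0.05. Of the 10 flanking genes 7 had a level above the limit, and CDH7, CDH19 and CCDC102B did not.

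Of the clade B genes outside 18q21, SERPINB1 and SERPINB9, both at 6p25, were measured. SERPINB1, an inhibitor of neutrophil elastase, was at 8.19 on rLCC111 and 8.21 on BSA, a log2 difference of -0.03. SERPINB9, an inhibitor of granzyme B, was at 6.05 on rLCC111 and 5.54 on BSA, a log2 difference of 0.51 between levels that both lay below the limit. SERPINB6 was not analysed here. Among 19 serpin genes of other clades, 4 of which had a level above the limit, the median was 0.01 and 0 were 2-fold different in either direction. The collagen chaperone SERPINH1 was at 11.93 on rLCC111 and 11.72 on BSA, and the thrombin and urokinase inhibitor SERPINE2 at 10.99 on rLCC111 and 10.72 on BSA, log2 differences of 0.20 and 0.27. SERPINF2, which inhibits plasmin, had -0.13 and SERPINA11 -0.02.

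Proteases that clade B serpins inhibit were read in 16 genes, of which 6 had a difference above 0, 7 below 0 and 3 at 0, with a median of 0.00. None was 2-fold different. FURIN, the target of SERPINB8, was at 10.71 on rLCC111 and 10.42 on BSA, a log2 difference of 0.29 against -0.39 for SERPINB8. The plasminogen activators, which SERPINB2 inhibits, differed in sign. Urokinase, PLAU, was at 12.34 on rLCC111 and 12.20 on BSA (0.14), and the tissue activator, PLAT, at 11.00 on rLCC111 and 11.42 on BSA (-0.42). The cathepsin genes CTSL and CTSK, targets of SERPINB13, had -0.09 and 0.37. CTSK was at 6.63 on rLCC111 and 6.26 on BSA, so it straddled the limit. CTSS had -0.31 and CTSV -0.01 at levels below the limit. Trypsin genes PRSS1 and PRSS3 had 0.18 and 0.22, PLG, the plasmin precursor, 0.09, and F2, which encodes thrombin, -0.02. Of these, PRSS1, PLG and F2 were below the limit on both arrays. The leukocyte proteases were flat, with ELANE, GZMB and CTSG at the same value on both arrays, PRTN3 at -0.01 and the mast cell chymase CMA1 at -0.05. GZMB, CTSG and CMA1 were below the limit on both arrays. Of the 16 protease genes, 8 had a level above the limit.

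**Figure D4:**
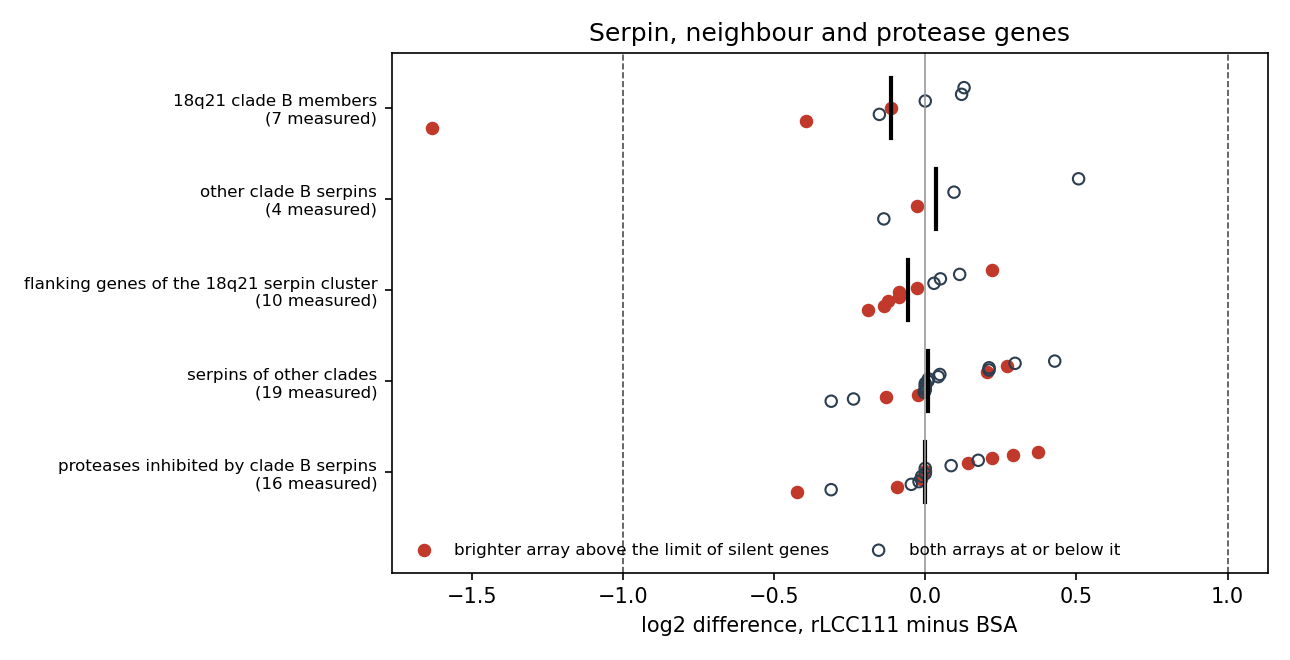
Log2 difference, rLCC111 minus BSA (horizontal), of each measured gene on 5 lists (rows), filled where the higher of its levels exceeded 6.61 and open where it did not; black bars are list medians and dashed lines mark 2-fold. SERPINB7, at -1.63, is the point beyond a dashed line, and the list medians lie between -0.11 and 0.03.

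The labelled cell type was checked by markers. Of 10 mesenchymal genes 7 had a level above the limit, and NT5E, THY1 and S100A4 did not. The mesenchymal genes VIM, FN1, CD44 and ZEB1 were at 12.98, 13.29, 13.11 and 10.51 on rLCC111 and at 13.05, 12.80, 13.10 and 10.55 on BSA. Of 17 measured squamous epithelial genes, the 7 with a level above the limit were PERP, FLG, KRT14, KRT16, TGM1, SFN and LORICRIN. The p53 target PERP was at 11.39 on rLCC111 and 11.41 on BSA, and FLG had a log2 difference of 0.56. The keratin genes KRT14 and KRT16 had -0.01 and 0.02, TGM1 0.08, SFN -0.30 and LORICRIN -0.13. The other 10 were below the limit on both arrays, among them KRT5, KRT1, IVL, DSG3 and CDH1, so the squamous markers were mixed. Of 9 blood and macrophage genes, 3 were above the limit, with the lysosomal gene CD68 at 11.41 on rLCC111 and 11.52 on BSA and CSF1R and CD14 at log2 differences of 0.26 and 0.01. The pan-leukocyte gene PTPRC had the same value of 4.21 on both arrays, and HBB had a log2 difference of 0.11, both genes below the limit. No marker of these lists was 2-fold different, and the medians were 0.00 for mesenchymal, -0.03 for squamous and 0.00 for blood genes.

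In the order of differences over all genes, IL24 and ESM1 lay below SERPINB7 at -2.66 and -1.90, and MRGPRX4 and CD22 followed it at -1.48 and -1.39. IL24 was at 6.75 on rLCC111 and 9.41 on BSA, and ESM1 at 7.27 on rLCC111 and 9.17 on BSA. This order describes sizes on 2 arrays only.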

How the data were processed

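Expression was measured in HT1080 cells on 1 GeneChip Human Gene 1.0 ST array per coating, rLCC111 or BSA, for 24 h. The authors ran RMA, which adjusts for background, equalises arrays and combines probes, in Affymetrix Expression Console (version not stated). The deposited log2 levels of 33297 sequences were used without rescaling. Array medians were 7.12 on rLCC111 and 7.04 on BSA. Names came from GEO's platform annotation, brought up to date by gene ID against RefSeq (GRCh38.p14): 19460 sequences had 1 symbol, 1754 several and 12083 none. Sequences with several symbols were not used. Where a gene had more than 1 sequence, that with the highest mean over the arrays stood for it.

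The limma step that the methods name was not repeated, since 1 array per coating leaves no residual degree of freedom. A gene counted as 2-fold different at a log2 difference of at least 1 in size. Named were all measured members, other clade B serpins, flanking genes and proteases, the 4 highest of the other lists and the 2 genes on either side of SERPINB7 in the order of differences. The 3 genes nearest to it in level are not given, since levels of different probes are not comparable. Of the markers, TGM1, SFN, LORICRIN, KRT5, KRT1, IVL, DSG3, CDH1, NT5E, THY1, S100A4 and PTPRC were named after their values were seen. The members and lists were chosen with earlier results of these data known. The values were recomputed after median centring, quantile normalization or subtraction of a lowess trend (span 0.2, 3 iterations), with the mean over sequences, and with a filter on the limit of silent genes. Steps were tested on simulated data. Promoter sequences are from RefSeq (GRCh38.p14); 7 of the 9 measured cluster genes matched. Python 3.11.15, numpy 2.4.6, pandas 2.3.3, statsmodels 0.14.6 and matplotlib 3.10.9 were used.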

Additional observations from a re-analysis of the deposited data

How the results depend on the processing

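Across the 5 alternatives there were 107 recomputed values of the members, the comparison with neighbours and the related lists. All stayed within 0.18 log2, the SD of the sensory receptor differences, or kept the same count of 2-fold genes. This margin is wide beside the list medians, so a median could change sign within it. Under median centring the median of other clade B serpins went from 0.03 to -0.05. That of serpins of other clades went from 0.01 to -0.07 and that of mesenchymal genes from 0.001 to -0.08. The protease and blood medians went from 0.00 to -0.08, and the squamous and flanking medians stayed below 0. Part of this was fixed by the steps. Median centring moves every difference by the same amount, and averaging over sequences moved no member or list median. The largest move of a member was 0.079 log2, under median centring, and that of a list median 0.081. SERPINB7 was 2-fold lower in every setting. The filter on the limit of silent genes left 3 of the 7 measured members, with the same 2-fold member. Each member has 1 sequence, so averaging over sequences changed none. Over all genes, 73.3% of 2-fold calls were on the higher side as deposited (44 higher, 16 lower) and 59.7% after median centring (37 higher, 25 lower), which lowered the median of all genes to -0.08; quantile normalization gave 38 higher and 21 lower. No paired analysis was possible because there is 1 array per coating. Differences among dim genes are limited by signal near background.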
